A study of Mus musculus with 15 samples.

Results

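Trim28 and 9 further genes encode the machinery that silences transposons and heterochromatin through histone H3 lysine 9 (H3K9) methylation rather than DNA methylation: Setdb1, Atf7ip, Mphosph8, Ehmt1, Ehmt2, Cbx1, Cbx3, Cbx5 and Morc2a. The members were chosen by gene name, with earlier results of these data known, as the core repressors of this system that are not DNA methyltransferases. Their transcripts were followed in mouse kidney after loss of the maintenance DNA methyltransferase Dnmt1. The count tables held 46517 genes, of which 18132 passed the filter on low counts and were tested, and the 10 members were all among those tested. RNA was sequenced from 3 control and 3 knockout (KO) kidney samples at postnatal day 0. Both groups were C57BL/6 and carried floxed Dnmt1 alleles (Dnmt1 f/f), and the KO samples carried Six2Cre in addition, while the controls carried no Cre. Reduced representation bisulfite sequencing (RRBS), which reads cytosine methylation in CpG-rich restriction fragments, covered 3 controls and 3 KO samples of the same genotypes and age, plus 3 wild-type C57BL/6 adults of 6 weeks. Six2 drives Cre in the progenitors of the nephron, so stroma, ureteric epithelium, endothelium and blood cells of a KO kidney keep Dnmt1. The labels name the source as Six2-positive kidney cells and the DNA protocol names the entire kidney, and markers of several other lineages were present in every RNA library.

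TRIM28 is a corepressor without DNA-binding activity of its own, which Krüppel-associated box (KRAB) zinc finger proteins bring to retrotransposons and imprinted loci. It recruits SETDB1, which places H3K9 trimethylation, and the HP1 proteins encoded by Cbx1, Cbx3 and Cbx5 bind that mark. The HUSH complex, with MPHOSPH8 as its chromodomain subunit, works with SETDB1 and the ATPase MORC2A on young L1 elements and other long intronless sequences. EHMT1 and EHMT2 (GLP and G9a) form a heterodimer that places H3K9 dimethylation. In embryonic cells TRIM28 and SETDB1 silence endogenous retroviruses even where DNA methylation is lost, and DNA methylation has a larger part in that silencing in differentiated cells.

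RNA libraries held 26773937 to 34102567 gene counts, and RRBS libraries 18424875 to 88765177 cytosine calls, with KO 3 the shallowest at a median of 4 calls per position. Dnmt1 fell by 0.74 on the log2 scale in KO (edgeR adjusted p 0.00577), with every KO library below every control. Control 3 stood apart from the other 2 RNA controls. Its summed level of 12 tubule markers was 6058 CPM, which are counts scaled to library size, against 3135 and 3158 CPM in controls 1 and 2 and 476 to 570 CPM in KO, and its 18 genes of cycling cells summed to 1945 CPM, against 2423 and 2374 CPM in the other controls and 2214 to 2253 CPM in KO. At an edgeR adjusted p under 0.05 the 12 tubule markers all fell in KO, as did 7 of 8 podocyte and 6 of 8 endothelial markers. At that threshold 3 of 8 stromal, 2 of 8 ureteric and 2 of 8 leukocyte markers rose. Of all genes 6.36% were higher and 8.23% lower. Stromal Pdgfrb and leukocyte Csf1r had every KO library below every control but did not pass. Stromal markers summed to 3191 to 3804 CPM in controls and 3106 to 3724 CPM in KO. Of 8 markers of the nephron progenitors that Six2Cre targets 2 rose and 3 fell, with sums of 342 to 464 CPM in controls and 328 to 374 CPM in KO, and 1 of 6 tested erythroid markers fell. None of the listed markers found in the tables was at 0 in every library. The part of these shifts in cell type in the values below was not tested, and in bulk tissue fewer cells of a type and less RNA per cell cannot be told apart. Nothing states that replicates were separate animals, so p-values measure the spread between these samples.

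None of the 10 silencing factors changed past the threshold in Dnmt1 KO kidney (edgeR quasi-likelihood test, Benjamini-Hochberg adjusted p under 0.05 over 18132 genes). The same test called 14.6% of all genes, with 6.36% higher and 8.23% lower. Among the 7373 genes with a mean level at or above that of the lowest member it called 14.1%, with 3.08% higher and 11.0% lower. Atf7ip and Morc2a had an unadjusted edgeR p under 0.05, as had 5081 of the 18132 genes tested. DESeq2 called none of the 10, and its share over all genes is not given here. The fitted log2 fold change was above 0 for 9 of the 10 members, with a median of 0.17, against -0.00074 over all genes and -0.04 over genes at member level. All 3 KO libraries lay above all 3 controls for Cbx1, Cbx3 and Cbx5, which is 3 of 10 members, where 16.5% of all genes had KO above and 34.4% did not overlap in either direction. CPM values were scaled by the trimmed mean of M values (TMM) and are not per length, so they are compared between libraries and not between genes.

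**Figure D1:**
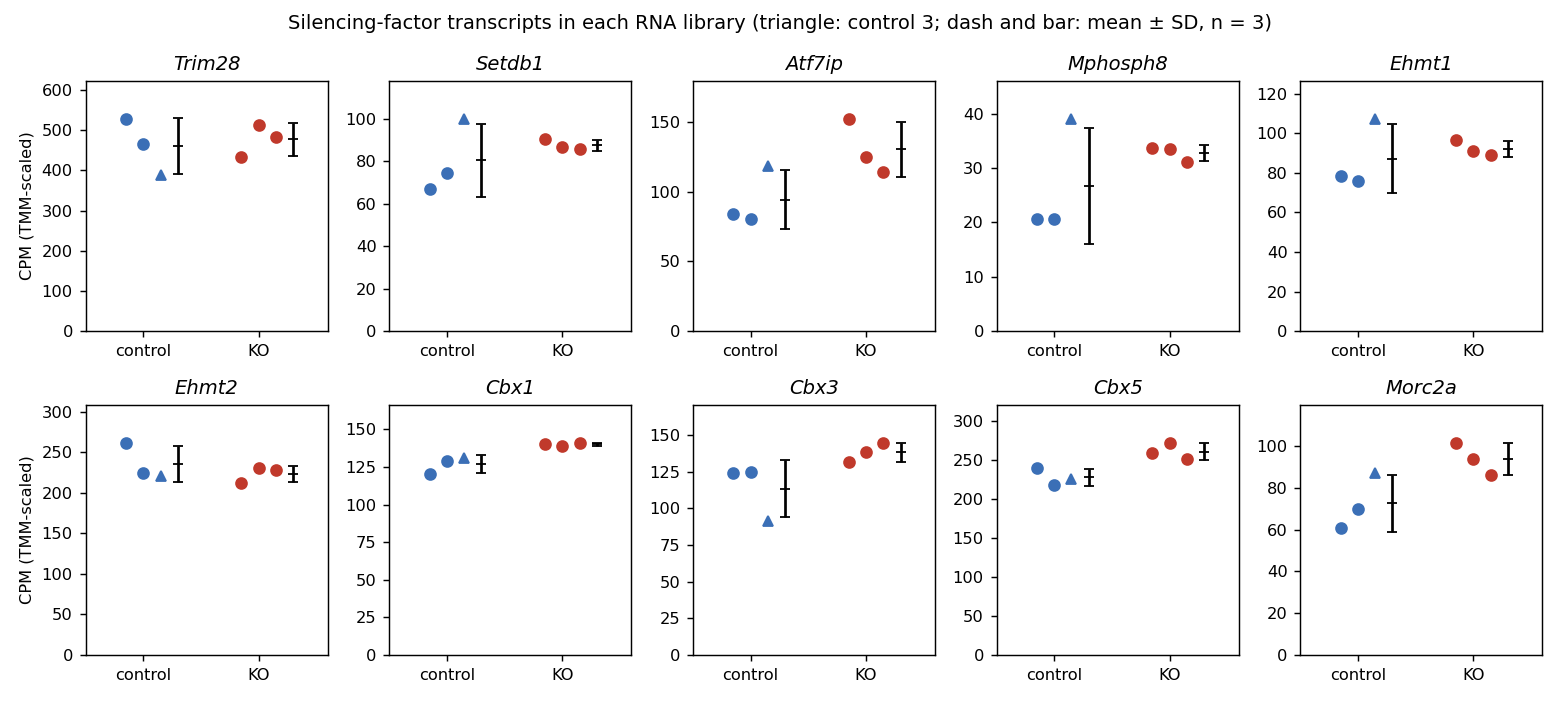
Level of each of the 10 silencing-factor transcripts in every RNA library, in TMM-scaled CPM on axes that start at 0; points are libraries, the triangle is control 3, and the dash and bar are the mean ± SD of 3 libraries. The KO points of Cbx1, Cbx3 and Cbx5 lie above every control point.

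Trim28 did not pass the test in either direction. The gene (ENSMUSG00000005566.12, chromosome 7, 13024152 to 13031032, GRCm38) had 527, 467 and 389 CPM in controls 1 to 3 and 434, 514 and 483 CPM in KO 1 to 3. The KO libraries fell inside the range of the controls, whose spread was the larger. Controls averaged 461 ± 69.2 CPM and KO libraries 477 ± 40.5 CPM (SD, n = 3 each), with a log2 fold change of 0.05 (SE 0.16, edgeR adjusted p 0.885). The 95% interval ran from -0.31 to 0.41, and 55.1% of all genes had a lower fold change. Without control 3 the estimate was -0.06 (edgeR adjusted p 0.728).

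Setdb1, the H3K9 methyltransferase that TRIM28 recruits (chromosome 3, 95323525 to 95357202), had 67.1, 74.3 and 99.8 CPM in controls 1 to 3 and 90.5, 86.7 and 85.5 CPM in KO 1 to 3. Controls 1 and 2 lay below every KO library and control 3 lay above them. The fitted log2 change was 0.12 (SE 0.15, edgeR adjusted p 0.675, 95% interval -0.23 to 0.47) with 6 libraries and 0.31 (edgeR adjusted p 0.0380) without control 3. Raw Setdb1 reads per Trim28 read were 0.127, 0.159 and 0.256 in controls and 0.209, 0.169 and 0.177 in KO, so that the KO ratios lay between those of controls 2 and 3.

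The promoters of Trim28 and Setdb1 are printed here because methylation within 1000 bases of their starts is given further on. For Trim28 no CG dinucleotide of the printed stretch was itself covered. They are RefSeq sequences of GRCm38.p6 that end at the annotated gene start, read 5′ to 3′ on the gene's strand, with CG dinucleotides, the sites of methylation, in capitals. The Trim28 stretch is chr7:13023902-13024151 on the plus strand, which also lies within the predicted gene Gm31649, and the Setdb1 stretch is chr3:95357203-95357452 on the minus strand.
Trim28: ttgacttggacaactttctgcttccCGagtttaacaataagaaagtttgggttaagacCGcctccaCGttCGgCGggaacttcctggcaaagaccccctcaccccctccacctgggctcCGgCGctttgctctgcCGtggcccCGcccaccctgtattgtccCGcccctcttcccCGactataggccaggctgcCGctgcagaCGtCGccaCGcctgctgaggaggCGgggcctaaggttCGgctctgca
Setdb1: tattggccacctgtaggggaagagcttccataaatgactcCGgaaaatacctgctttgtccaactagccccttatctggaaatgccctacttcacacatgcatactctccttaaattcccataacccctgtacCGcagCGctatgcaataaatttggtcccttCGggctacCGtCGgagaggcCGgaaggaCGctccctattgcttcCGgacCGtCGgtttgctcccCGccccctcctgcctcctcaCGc
Trim28 held 17 CG dinucleotides and Setdb1 13 in 250 bases, where the median over 32851 RefSeq promoters was 6. Motifs were counted on both strands. The ETS-type motif CCGGAAG was present in 6.91% of promoters and occurred in Setdb1 alone among the members, in 2 copies. The E2F-type motif TTCCCGCC was present in 1.86% of promoters and occurred in Trim28 alone among the members. The Sp1-type GC box GGGCGG was found in 12 of 14 annotated starts of the members, covering all 10 genes, and in 32.7% of promoters. CCGG, the site of the enzyme MspI that is commonly used for RRBS and a part of CCGGAAG, was found in 11 of the 14 starts and in 47.1% of promoters. A match is only a run of letters.

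Atf7ip, which binds SETDB1 and keeps it stable in the nucleus, had the highest estimate of the 10 members and did not pass the test. Atf7ip (chromosome 6, 136518789 to 136610850) had 84.3, 80.1 and 119 CPM in controls 1 to 3 and 152, 125 and 114 CPM in KO 1 to 3. Control 3 lay between KO 2 and KO 3, and the other 2 controls lay below every KO library. The means were 94.4 ± 21.2 and 130 ± 19.5 CPM (SD, n = 3 each), with a log2 fold change of 0.46 (SE 0.18, 95% interval 0.05 to 0.88). The edgeR p was 0.0316 before and 0.132 after adjustment, and 84.2% of all genes had a lower fold change. Without control 3 the log2 fold change was 0.66 (edgeR adjusted p 0.00657).

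Mphosph8, the chromodomain subunit of HUSH (chromosome 14, 56668235 to 56697430), had the widest spread between controls relative to its mean. It had 20.6, 20.6 and 39.0 CPM in controls 1 to 3 and 33.6, 33.6 and 31.2 CPM in KO 1 to 3. Control 3 lay above every KO library and the other 2 controls below them. The fitted log2 change was 0.29 (SE 0.25, edgeR adjusted p 0.508, 95% interval -0.27 to 0.86), and it was 0.67 (edgeR adjusted p 0.00231) without control 3.

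Morc2a, the ATPase that works with HUSH (chromosome 11, 3649189 to 3690477), had 60.7, 69.7 and 87.3 CPM in controls 1 to 3 and 101, 93.6 and 86.0 CPM in KO 1 to 3. Control 3 was above KO 3 alone, and controls 1 and 2 were below every KO library. The means were 72.6 ± 13.5 and 93.7 ± 7.76 CPM (SD, n = 3 each), with a log2 fold change of 0.37 (SE 0.15, 95% interval 0.03 to 0.71). The edgeR p was 0.0382 before and 0.150 after adjustment. Without control 3 the log2 fold change was 0.52 (edgeR adjusted p 0.00889).

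Neither gene of the G9a and GLP pair passed the test. Ehmt1 (chromosome 2, 24790769 to 24919643) had 78.4, 76.1 and 107 CPM in controls 1 to 3 and 96.3, 90.8 and 88.7 CPM in KO 1 to 3. Its KO libraries lay between control 3 and the other 2 controls, and the fitted log2 change was 0.08 (SE 0.15, edgeR adjusted p 0.797, 95% interval -0.26 to 0.41). Ehmt2 (chromosome 17, 34898463 to 34914073) had 261, 224 and 221 CPM in controls 1 to 3 and 212, 230 and 228 CPM in KO 1 to 3. It was the one member with an estimate below 0, at -0.08 (SE 0.12, edgeR adjusted p 0.749, 95% interval -0.35 to 0.20). Raw Ehmt1 reads per Ehmt2 read were 0.300, 0.339 and 0.484 in controls and 0.455, 0.395 and 0.388 in KO, again with control 3 above the KO range and the other controls below it.

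Ehmt1 is shown because its start is one of 2 member starts with methylated positions. The stretch is chr2:24919644-24919859 on the minus strand, of the same source and with CG dinucleotides in capitals.
Ehmt1: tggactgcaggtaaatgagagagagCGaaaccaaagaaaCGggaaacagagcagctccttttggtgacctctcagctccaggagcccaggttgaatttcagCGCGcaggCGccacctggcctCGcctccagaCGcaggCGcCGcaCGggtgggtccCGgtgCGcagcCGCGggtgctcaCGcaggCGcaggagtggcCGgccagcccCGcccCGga
These 216 bases, which end before the annotated span of the gene, held 19 CG dinucleotides.

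The 3 HP1 genes had KO values just above the controls. Cbx1 (HP1 beta, chromosome 11, 96788680 to 96808982) had 120, 129 and 131 CPM in controls 1 to 3 and 140, 139 and 141 CPM in KO 1 to 3. The fitted log2 change was 0.14 (SE 0.10, edgeR adjusted p 0.403, 95% interval -0.08 to 0.37), and the KO libraries differed among themselves by an SD of 0.904 CPM. Cbx5 (HP1 alpha, chromosome 15, 103191546 to 103239904) had 240, 218 and 226 CPM in controls 1 to 3 and 260, 272 and 251 CPM in KO 1 to 3. Its fitted log2 change was 0.20 (SE 0.11, edgeR adjusted p 0.308, 95% interval -0.06 to 0.45). Groups did not overlap for either gene, and neither passed the test.

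Cbx3 (HP1 gamma, chromosome 6, 51470154 to 51483704) had 124, 125 and 91.2 CPM in controls 1 to 3 and 132, 138 and 145 CPM in KO 1 to 3. Control 3 was the lowest library here, and the KO libraries lay above all controls. The fitted log2 change was 0.28 (SE 0.14, edgeR adjusted p 0.240, 95% interval -0.04 to 0.61), and 0.15 (edgeR adjusted p 0.242) without control 3. The 5 Cbx3 pseudogenes in the tables had at most 46 reads in a library, up to 1.16% of its Cbx3 reads. Of the raw reads on the 3 HP1 genes, Cbx5 took 46.1% to 50.4% in controls and 46.8% to 49.5% in KO, Cbx3 took 20.3% to 26.5% and 24.7% to 26.9%, and Cbx1 took 24.8% to 29.3% and 25.3% to 26.4%. The KO shares lay within the control range for Cbx5 and Cbx1, and KO 3 exceeded it for Cbx3.

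Control 3 was the highest control for Setdb1, Atf7ip, Mphosph8, Ehmt1, Cbx1 and Morc2a, and the lowest for Trim28, Ehmt2 and Cbx3. Of 3 controls 2 are always the highest or lowest, and the share over all genes was not computed. The position of control 3 in the members is therefore not read further. Every KO library lay above controls 1 and 2 for 8 members, with Trim28 and Ehmt2 as the exceptions, as it did for 27.6% of all genes, a split chosen after control 3 was seen. The SD of KO was below that of the controls for all 10, as it was for 72.1% of all genes and 80.9% of genes at member level. Without control 3, 4 members passed the test as higher, namely Atf7ip, Mphosph8, Morc2a and Setdb1, and none as lower. That fit called 13.6% of 18533 genes higher and 13.8% lower. With limma voom and quality weights, which lower the weight of a deviant library, 3 members were higher: Atf7ip at 0.60 (adjusted p 0.00706), Mphosph8 at 0.62 (adjusted p 0.00871) and Morc2a at 0.51 (adjusted p 0.00740), where 13.5% of all genes were higher. Leaving out any one of the other 5 libraries gave 0 called members.

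**Figure D2:**
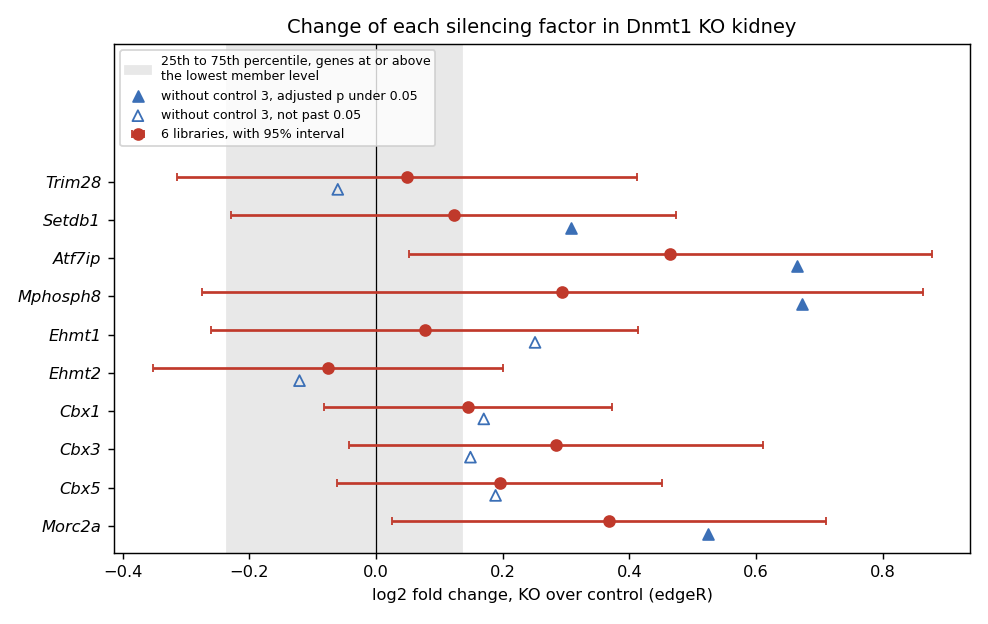
Log2 fold change of KO over control for each silencing factor from the edgeR fit; red points with bars are 6 libraries with the 95% interval, and triangles are the fit without control 3, filled where the adjusted p is under 0.05. The grey band is the 25th to 75th percentile of genes at member level, and the filled triangles are Setdb1, Atf7ip, Mphosph8 and Morc2a.

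Trim28 varied over the 6 libraries most like 3 genes of nucleotide synthesis, RNA reading and protein folding. The measure was the root mean square difference of log2 CPM, each gene centred on its own mean, among 11539 genes. The nearest were Cad, a multi-enzyme of pyrimidine synthesis, at 0.026, Ythdf1, a reader of N6-methyladenosine in RNA, at 0.034, and Cct8, a subunit of the TRiC chaperonin, at 0.037. None of these 3 changed in KO, which follows from their choice as nearest to Trim28 over the same libraries and is not a separate result. Of the members, Ehmt2 was closest to Trim28 at 0.105, which was rank 692, and Mphosph8 was farthest at 0.461, rank 9929.

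Counts of called genes in the related pathways are to be read against 6.36% higher and 8.23% lower over all genes. In 4 lists 1 gene was higher, which is 9.09% to 11.1% of the tested genes of a list. Of 10 HUSH and SETDB1 partners 9 were tested, 1 rose and 0 fell, with a median log2 fold change of 0.39 and 9 of 9 estimates above 0. The one that rose was Fam208b, or Tasor2, a relative of the HUSH subunit TASOR. Fam208b had 35.1, 45.9 and 56.3 CPM in controls 1 to 3 and 85.1, 67.7 and 72.5 CPM in KO 1 to 3, with a log2 fold change of 0.71 (SE 0.18, edgeR adjusted p 0.0326). KO lay above the controls, and the call was lost with library size alone as the scaling (adjusted p 0.0629) and when any library but control 3 was left out, with an adjusted p of up to 0.135.

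Of 10 KRAB zinc finger genes with known retrotransposon or imprint targets 9 were tested, 1 rose and 0 fell, with a median of 0.30. Zfp445, which acts at imprinted loci, had 35.3, 42.6 and 52.6 CPM in controls 1 to 3 and 72.5, 73.7 and 60.1 CPM in KO 1 to 3. KO lay above the controls, the fitted log2 change was 0.66 (SE 0.16, edgeR adjusted p 0.0309), and this call too was lost with library size alone (adjusted p 0.0696) and when any library but control 3 was left out, with an adjusted p of up to 0.127. KRAB zinc finger genes belong to a large family of similar sequences, so reads could be split between copies.

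Suv39h2 gave the largest change among the related H3K9 enzymes. Of 11 other H3K9 methyltransferases and G9a partners 1 rose and 0 fell, with a median of -0.03. Suv39h2, which trimethylates H3K9 at pericentromeric repeats, had 11.3, 13.1 and 8.81 CPM in controls 1 to 3 and 36.1, 23.7 and 26 CPM in KO 1 to 3. Every KO library lay well above every control, with a log2 fold change of 1.37 (SE 0.22, edgeR adjusted p 0.00458). The call held under all 14 alternative fits, with estimates from 1.17 to 1.5. Its paralog Suv39h1 had means of 52.0 CPM in controls and 51.0 CPM in KO (log2 fold change -0.03, edgeR adjusted p 0.916).

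Among readers and erasers of the mark, 0 of 10 tested H3K9 demethylases changed, with a median of 0.12. Kdm1a, a lysine demethylase and the one with the smallest p, had means of 123 and 146 CPM (log2 fold change 0.24, edgeR adjusted p 0.253). None of the 10 had an unadjusted edgeR p under 0.05, where 5081 of all 18132 genes had, and DESeq2 called 0. Of 16 HP1-associated factors 0 changed, with a median of 0.08. Atrx, a chromatin remodeller of heterochromatin, had means of 214 ± 23.3 and 278 ± 24.8 CPM (SD, n = 3 each), with a log2 fold change of 0.38 (edgeR p 0.0209, adjusted p 0.101), and voom called it higher (adjusted p 0.0291). DESeq2 called 0 of the 16, and Atrx and Hdac2 had an unadjusted edgeR p under 0.05, as had 5081 of all 18132 genes.

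In PRC1.6, the Polycomb complex that silences germline genes, 1 of 10 subunits rose and 0 fell, with a median of 0.12. Mga, its DNA-binding scaffold, had 82.8, 95.8 and 91.2 CPM in controls 1 to 3 and 152, 137 and 124 CPM in KO 1 to 3. All KO libraries lay above the controls, with a log2 fold change of 0.61 (SE 0.12, edgeR adjusted p 0.0110). The adjusted p was 0.0606 without KO 1 and 0.0522 without KO 2. Of 18 genes of cycling cells 0 rose and 1 fell, with a median of 0.04. Rrm2, a subunit of ribonucleotide reductase, had 110, 102 and 99.9 CPM in controls 1 to 3 and 79.6, 74.0 and 78.5 CPM in KO 1 to 3, a log2 fold change of -0.43 (SE 0.10, edgeR adjusted p 0.0239). Its adjusted p was 0.0594 with library size alone and between 0.0738 and 0.125 when control 1 or any KO library was left out.

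**Figure D3:**
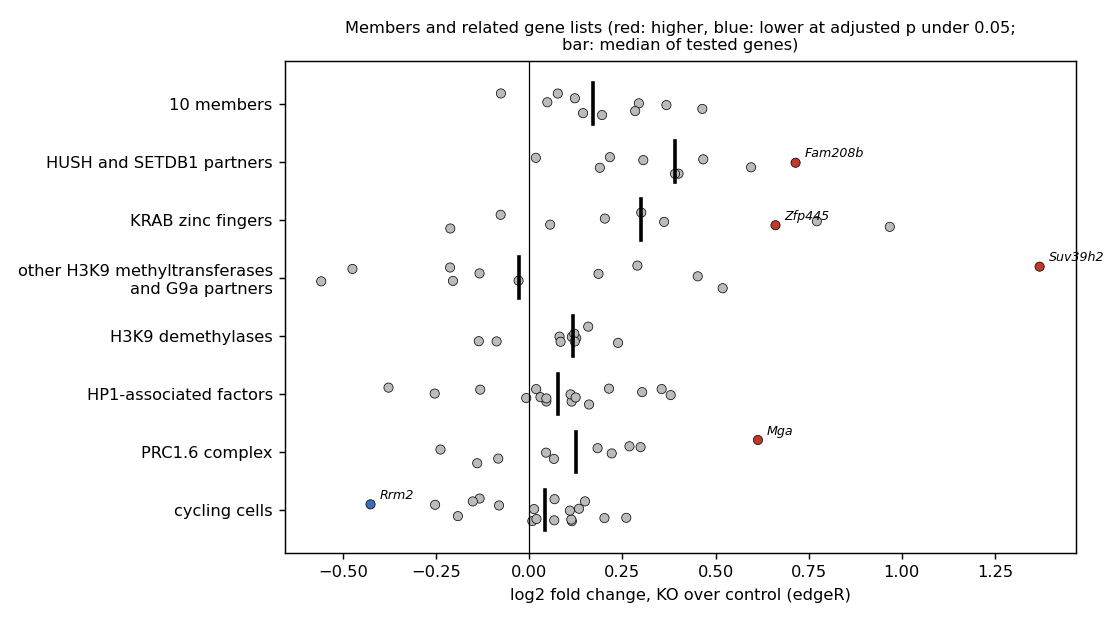
Log2 fold change of KO over control for the 10 silencing factors and 7 related gene lists; each point is a tested gene, red or blue where the edgeR adjusted p is under 0.05, and the bar is the median of the list. Fam208b, Zfp445, Suv39h2 and Mga are the genes that rose, and Rrm2 is the one that fell.

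Most listed germline and two-cell embryo genes were near 0 in controls and expressed in KO. Whether the members silence these genes in kidney was not tested. The summed level of the 17 listed genes was 2.32, 2.17 and 2.31 CPM in controls 1 to 3 and 255, 184 and 349 CPM in KO 1 to 3. Much of the control sum was Tdrd1, with 1.80, 1.33 and 1.20 CPM in controls 1 to 3 and 2.03, 2.23 and 2.96 CPM in KO 1 to 3 (edgeR adjusted p 0.150). In the other 15 of 16 tested genes the increase passed the test, but low genes passed the count filter mainly through their KO reads, so that the share is not read further. Sohlh2, a germline transcription factor, had 0, 0 and 1 reads in controls 1 to 3 and 1121, 1110 and 1298 reads in KO 1 to 3. Zscan4d, of a gene cluster active in the two-cell embryo, had 2, 0 and 0 reads in controls 1 to 3 and 1865, 1140 and 2014 reads in KO 1 to 3. Zscan4c had 0 reads in every control and 1043, 135 and 1054 reads in KO 1 to 3, and reads of the near-identical Zscan4 copies cannot be assigned with certainty.

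Most member starts were nearly unmethylated in the controls, as were most gene starts. Calls were summed within 1000 bases of each RefSeq start over positions with at least 10 calls in all 6 libraries compared, and 8 windows of 7 members had the 3 positions required. Control methylation was under 5% in 6 of these 8 windows, of which 2 are Cbx3 starts with the same 14 positions. Genome-wide it was under 5% in 75.4% of 11385 windows, so the low level does not set the members apart. The test on methylated and unmethylated calls found 1 of the 8 lower and 0 higher in KO, where 9.62% of all windows were lower and 0.114% higher. Among the windows under 5% in controls 0.0932% were lower.

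Setdb1 had 1.92%, 1.88% and 0.680% in controls 1 to 3, compared with 3.26%, 0.445% and 1.56% in KO 1 to 3, from 294 to 1700 calls a library. Mphosph8 had 2.07%, 0.871% and 0.604% in controls and 0.616%, 0.647% and 0% in KO, the last a share of 120 calls, where 0 calls allow up to 2.5% if calls are independent. Atf7ip had 2.17%, 2.63% and 2.53% in controls and 3.39%, 1.21% and 8.64% in KO. These 3 starts overlapped between the groups and did not pass the test.

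Ehmt2 at its start 34898970 had 4.99%, 1.37% and 2.86% in controls 1 to 3, compared with 0.811%, 0.519% and 1.56% in KO 1 to 3 (quasi-binomial adjusted p 0.302). Without control 2, the deepest library, the adjusted p was 0.0398. Cbx3 had 0.312%, 1.15% and 0.446% in controls and 1.01%, 2.62% and 0.833% in KO (adjusted p 0.656), and its 2 starts shared the same 14 positions. Trim28, Cbx1 and Cbx5 had too few positions covered in all 6 libraries. The Trim28 start had 18 positions with at least 10 calls in 1 or more of 7 libraries, and none of the 17 CG dinucleotides in the sequence printed above was among them. Methylated calls there were 1 of 518 in 2 controls, 6 of 432 in 2 KO libraries, 5 of them in KO 2, and 0 of 939 in the 3 adults. If calls were independent, 0 of 939 would allow a share of up to 0.319%. The positions differed between libraries and no test was made.

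**Figure D4:**
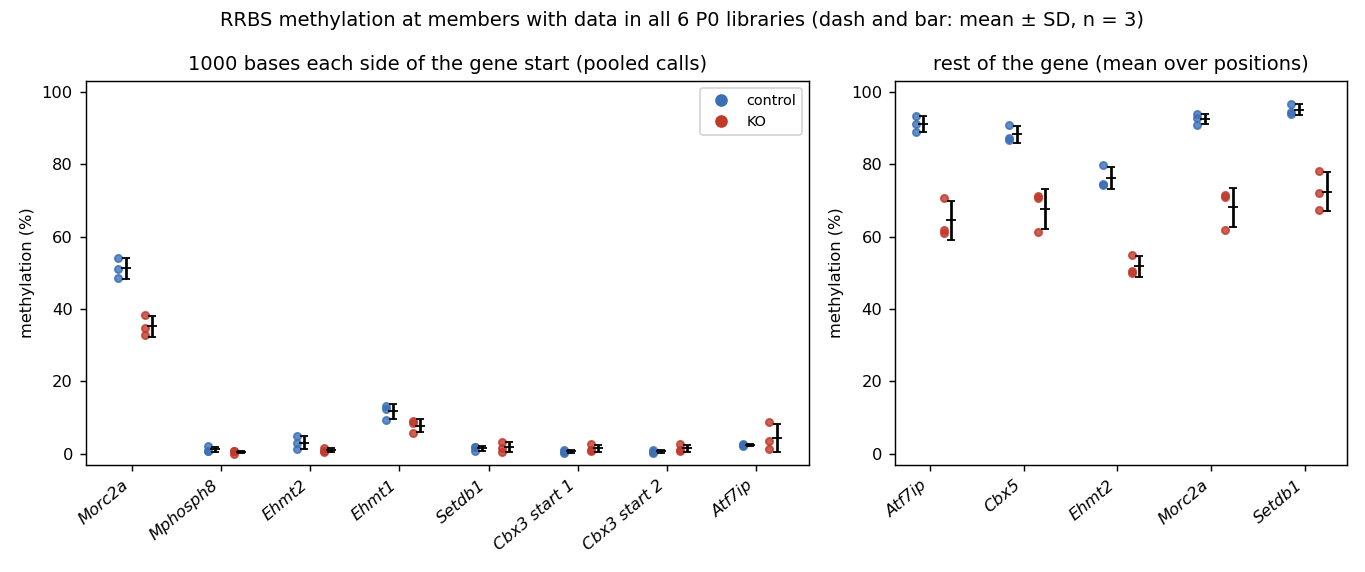
RRBS methylation in percent for members with data in all 6 libraries at postnatal day 0, within 1000 bases of the gene start as pooled calls (left) and in the rest of the gene as the mean over positions (right); points are libraries, and the dash and bar are the mean ± SD of 3. Start windows other than Morc2a and Ehmt1 lie at 4.99% or less, except for Atf7ip at 8.64% in KO 3, and gene bodies lie between 74.3% and 96.7% in controls and between 49.9% and 78.0% in KO.

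Ehmt1 had a start with partial methylation. Its window (start 24919609, 13 positions) had 12.3%, 13.3% and 9.36% in controls 1 to 3, compared with 8.6%, 5.83% and 8.91% in KO 1 to 3. KO lay below the controls, with means of 7.78% ± 1.70 and 11.7% ± 2.05 (SD, n = 3 each), and the difference did not pass the test (quasi-binomial adjusted p 0.128, exact two-sided permutation p 0.1, the smallest possible with 3 against 3). In each library 61.1% to 97.4% of the methylated calls of the window came from 2 positions upstream of the sequence printed above, singled out after their values were seen. At 778 bases before the start the controls had 66.7%, 70.0% and 100%, KO had 49.3%, 47.1% and 47.8%, and adults had 53.7%, 77.1% and 38.9%. At 822 bases before it the controls had 25.7%, 17.8% and 8.82%, KO had 4.11%, 10% and 0% (0 of 20 calls, which allows up to 15%), and adults had 31.7%, 24.2% and 27.8%. A further position, 38 bases before the start and inside the printed sequence, was not covered in KO 1 and KO 3 and is not part of the window. It had 3 of 12, 2 of 17 and 0 of 12 methylated calls in controls 1 to 3 and 0 of 14 in KO 2.

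Morc2a was the one member start that was lower in KO, and the change lay inside the gene. Its window (start 3649437, 20 positions) had 54.2%, 50.9% and 48.5% in controls 1 to 3, compared with 38.4%, 34.7% and 32.7% in KO 1 to 3. The groups did not overlap, with means of 51.2% ± 2.85 and 35.3% ± 2.88 (SD, n = 3 each), a difference of -15.9 points (quasi-binomial adjusted p 0.000280, exact two-sided permutation p 0.1). The call was lost within 500 bases of the start (-0.55 points, adjusted p 1) and with each position weighing the same (-5.96 points, adjusted p 0.263).

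The Morc2a positions were then divided at the start, a choice made after seeing the values. The 16 positions before it had 1.0% ± 0.370 in controls, 1.19% ± 0.743 in KO and 0.0917% ± 0.159 in adults (SD, n = 3 each). The 4 positions inside the gene, 693 to 916 bases past the start at 3650130, 3650155, 3650323 and 3650353, had 97.6% ± 2.66 in controls, 66.0% ± 1.93 in KO and 97.0% ± 0.766 in adults. The means of the upstream positions were near 0 in every group, and the inner ones differed between KO and the other groups by more than their spread. The 250 bases before this start held 39 CG dinucleotides, a number reached by 1.57% of RefSeq promoters, and they lie within the annotated gene span and are not printed. A second annotated start, at 3658672, had no CG in the 250 bases before it.

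**Figure D5:**
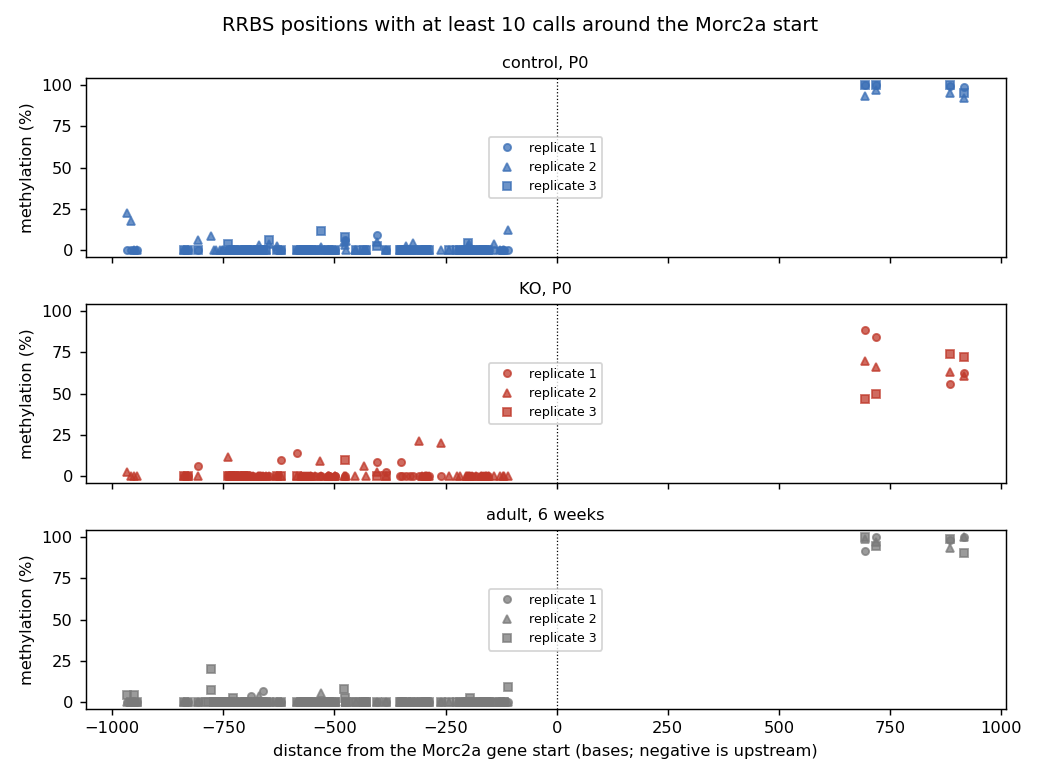
Methylation in percent of each RRBS position with at least 10 calls, by distance in bases from the Morc2a start (dotted line), for controls, KO and adults; symbols are replicates. Most positions before the start lie near 0, with single values of up to 22.2% in controls, 21.4% in KO and 20% in adults, and the 4 positions 693 to 916 bases past it lie at 90.4% or more in adults, at 92.2% or more in controls and between 46.7% and 88.8% in KO.

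In the bodies of the members methylation was high and fell in KO, as it did in most gene bodies. Bodies, added after seeing the data, were the RefSeq gene bounds without 1000 bases around each start, and 5 members had data in all 6 libraries. Calls were lower in 4 of the 5, namely Setdb1, Atf7ip, Cbx5 and Morc2a, where 78.6% of 10332 bodies were lower and 0.0484% higher. The median difference was -24.4 points for the members, from a control median of 91.0%, and -18.1 points for all bodies, from 72.8%. The starting levels differ, so the larger drop in points is not read as particular to the members.

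Setdb1 went from 95.1% ± 1.48 in controls to 72.4% ± 5.41 in KO (quasi-binomial adjusted p 4.59e-05). Atf7ip went from 91.0% ± 2.23 to 64.5% ± 5.46 (adjusted p 0.000283), Cbx5 from 88.2% ± 2.24 to 67.7% ± 5.54 (adjusted p 9.61e-05) and Morc2a from 92.5% ± 1.43 to 68.1% ± 5.44 (adjusted p 1.09e-05). Ehmt2 went from 76.2% ± 3.06 to 51.7% ± 2.77 as a mean over 7 positions, and the test on its pooled calls gave -6.82 points (adjusted p 0.0804). All values are mean ± SD with n = 3, over 4 to 7 positions a gene. The exact permutation p was 0.1 for each.

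Adult kidney was compared with the controls at the same starts. Of 11 windows of 9 members 3 were lower and 0 higher, where 20.2% of 15105 windows were lower and 5.0% higher. Of windows under 5% in controls, 19.6% were lower. Age and developmental stage differ between these groups together with the floxed alleles, and their parts cannot be told apart. Mphosph8 had 1.51%, 0.847% and 0.827% in controls 1 to 3 and 0.110%, 0.159% and 0.0601% in adults 1 to 3 (quasi-binomial adjusted p 0.00992). Ehmt1 had 6.14%, 7.66% and 5.17% in controls and 4.35%, 2.67% and 1.06% in adults (adjusted p 0.00689). Within 500 bases of the start both calls were lost, at an adjusted p of 0.0813 for Mphosph8 and 0.0607 for Ehmt1, and with each position weighing the same that of Ehmt1 was 0.247. Morc2a had 31.2%, 27.6% and 26.5% in controls and 18.4%, 14.5% and 17.8% in adults over 48 positions (adjusted p 5.19e-05). With each position weighing the same the difference was -0.47 points (adjusted p 0.759). Its 4 positions inside the gene had 97.6% ± 2.66 in controls and 97.0% ± 0.766 in adults, a difference within their spread. The pooled Morc2a call is therefore not read as a loss of methylation at these 4 positions. Pooled values also depend on how calls were shared among positions, whose part was not tested. Of 6 member bodies 0 were lower and 1 was higher in adults, where 17.3% of 12160 bodies were lower and 8.19% higher. That one was Ehmt2, with a difference of 11.8 points in pooled calls (quasi-binomial adjusted p 0.00605). As a mean over its 16 positions Ehmt2 went the other way, from 81.3% in controls to 79.4% in adults. With equal weight for each position it was not called.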

How the data were processed

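Raw gene counts, deposited by the authors with 1 table per RNA sample, and RRBS percent methylation with methylated and unmethylated counts per position, also as deposited, were used. Per the submitters' processing notes the tools include Trim Galore, Bismark, STAR 2.4.1d and HTSeq 0.6.1 and the builds mm10 and GRCm38; the strand setting is not given in the sources used here, so reads shared with overlapping genes (Gm31649 for Trim28, Cers2 for Setdb1, LOC108169175 for Atf7ip, Gm16973 for Mphosph8, Gm11517 for Cbx1) cannot be told apart by strand. Genes were tested with edgeR 4.0.16 in R 4.3.3 (quasi-likelihood, TMM, filterByExpr). Lines of unassigned reads were left out; reads without a unique alignment were 14.0% to 28.0% of reads. Window and body calls were tested with a quasi-binomial model whose dispersion was moderated with limma 3.58.1 and kept at 1 or more. Scripts were tested on simulated data. Counting error falls with calls per window; member start windows had at least 120 calls a library in the KO comparison and 105 in the adult one, and member bodies in KO at least 65.

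The members and lists were chosen with earlier results of these data known. Named genes were the members, Dnmt1, each list's genes past the threshold (the 3 largest increases where more than 6 passed; the smallest p where none did) and the 3 nearest to Trim28. Suv39h1, Hdac2, Tdrd1 and single positions were named after their values were seen. Alternatives tried were voom with quality weights (limma), DESeq2 1.42.0, the replicate number as a block, and other scalings, filters, thresholds, call minimums, windows and weights, and each replicate left out. Genes lacking RefSeq starts were left out. Libraries of a group differed by more than sampling noise.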

Additional observations from a re-analysis of the deposited data

How the results depend on the processing

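Calls of members as higher in KO went from 0 to 3 with limma voom and to 0 to 4 over the fits that left out 1 library; 0 were lower in any fit. All genes higher, 1153 in the edgeR fit, were 2442 with voom, 678 where every sample had to reach 10 counts, 528 at adjusted p under 0.01 and 647 to 2512 with 1 library left out; all genes lower, 1493 in that fit, were 2595, 681 at 0.01 and 701 to 2561. Genes of the 8 pathway lists that were higher, 19 in all, were 30 with voom, 5 where every sample had to reach 10 counts and 15 to 30 with 1 library left out. The 1 lower gene became 0 with library size alone and at 0.01, 3 with voom and 0 to 4 with 1 library left out. Estimates crossed 0 for Trim28 (-0.025 with voom, -0.060 to 0.15 with 1 library left out), Setdb1 (-0.0033 to 0.31) and Ehmt1 (-0.015 to 0.25).

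Same-numbered RNA replicates did not deviate together (correlations of -0.24, -0.065 and -0.12 over genes), so the numbers are not taken as pairs. With the replicate block 0 members were called, 798 genes were higher and 1005 lower, and 17 list genes were higher and 0 lower; 1 member start was lower in KO and 4 in adults. Fam208b (adjusted p 0.0552), Zfp445 (0.0643) and Rrm2 (0.119) were not called with the block, and these 3 and Mga were not called at 0.01.

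Member starts lower in KO were 0 within 500 bases and with equal weights, and 1 to 2 with 1 library left out. In adults 1 was lower under either of the first 2 settings and 3 to 4 with 1 library left out. The share of all windows lower under these settings and with the block is not given here, so these counts are not read further. The sign changed, in points, for Ehmt1 within 500 bases (0.043), for Setdb1 at 5 calls (-0.038) and 20 calls (-0.039) and without 1 library (-0.948 to 0.993), and for Atf7ip without 1 library (-0.184 to 2.38). Member bodies lower in KO were 2 at a minimum of 20 calls, which left Setdb1 and Atf7ip without enough positions, and bodies higher in adults were 0 with equal weights. Depth limits the starts of Trim28, Cbx1 and Cbx5, and KO 3 sets how many positions enter.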
